A study of Mus musculus with 16 samples.

Results

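The 10 genes described here carry the signal of insulin and insulin-like growth factor (IGF) through a cell, or set how much of the ligand reaches it. They are the ligand gene Igf1, the receptors Insr and Igf1r, the binding proteins Igfbp1 and Igfbp2, the receptor substrates Irs1 and Irs2, the kinase genes Pik3r1 and Akt2, and the transcription factor Foxo1. They were taken by name from a table of 48709 gene identifiers, and all 10 were found. A wider list of 109 genes of the same pathway, sorted by role, is used beside them.

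The study sequenced RNA from the liver and the heart of the same 8 mice, of which 4 were wild type (WT) and 4 carried the quadruple knockout (QKO) of the Msr genes, which makes 16 libraries in 4 groups of 4. All the animals were untreated C57BL/6J females, 3 to 6 months of age. The Msr genes encode the methionine sulfoxide reductases, enzymes that return oxidised methionine to methionine. The labels name no allele and no Cre driver for the QKO, and the 4 libraries of a group come from separate, numbered animals.

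Insulin and IGF-I bind related receptor tyrosine kinases, INSR and IGF1R, which phosphorylate the substrates IRS1 and IRS2. These recruit PI3 kinase, whose regulatory subunit p85 alpha is the product of Pik3r1, and the lipid it makes brings AKT kinases to the membrane. AKT keeps FOXO1 out of the nucleus, and genes that FOXO1 drives, such as Igfbp1 and Irs2 in liver, are high in fasting and low after a meal. Most circulating IGF-I is made by hepatocytes under growth hormone, whereas heart muscle takes up glucose in response to insulin and is mainly a receiver of both hormones.

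Liver libraries held 37.9 M to 67.9 M counts, of which 21.6 M to 40.7 M fell in protein-coding genes, and heart libraries 42.1 M to 72.6 M, of which 9.21 M to 28.1 M did. Levels are given as CPM, which is counts per 1 M counts of a library whose size was scaled by TMM, the trimmed mean of M-values. The 8 hepatocyte markers summed to between 27630 and 40970 CPM in livers and the 8 cardiomyocyte markers to between 15070 and 18860 CPM in hearts, so the tissues were as labelled. Of the Msr genes, Msrb2 had 164 to 1112 counts in WT libraries and 0 to 10 in QKO libraries, while Msrb3 had 507 to 788 in WT and 86 to 262 in QKO livers, and 1165 to 4092 in WT and 223 to 641 in QKO hearts. Msra had 2883 to 5591 counts in WT and 1752 to 3153 in QKO livers, and 272 to 829 in WT and 201 to 661 in QKO hearts. Msrb1 had 5209 to 9399 counts in WT and 5282 to 5742 in QKO livers, and 389 to 1219 in WT and 531 to 2040 in QKO hearts. These are raw counts, not scaled for library size. The scaled sizes ran from 48.9 M to 92.7 M in livers and from 24.1 M to 88.2 M in hearts. Raw ranges that overlap can therefore hide a difference in level between WT and QKO. The labels do not say which part of each gene was deleted, so these raw counts over whole genes check the knockout for Msrb2 but not for Msra and Msrb1. WT livers 3 and 4 held pancreatic acinar transcripts at 484 and 143 CPM, against at most 6.12 CPM in the other 6 livers, and WT liver 4 also held skeletal muscle transcripts at 166 CPM. The share of counts at ribosomal RNA loci ran from 31.4% to 56.9% in the hearts of replicates 1 to 3 and was 7.37% and 0.245% in the WT and QKO hearts of replicate 4.

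Of the 10 genes, 8 differed between liver and heart in each genotype, where 72.5% of all genes tested did in WT and 74.3% in QKO. None differed detectably by genotype, where 0.0846% of all genes tested did in liver and 0.165% in heart. Liver held the ligand and the binding proteins, with Igf1 18.6-fold and Igfbp2 307-fold above heart in WT and Igfbp1 close to absent from heart. Heart held more of both receptors, with Igf1r 7.86-fold and Insr 1.73-fold above liver in WT. Neither Akt2 nor Irs2 passed between the tissues, although Irs2 did with the animal as a block. The threshold used throughout is an adjusted p under 0.05 in edgeR's quasi-likelihood test with Benjamini-Hochberg adjustment over all genes tested. Irs2 varied most between animals in heart, where its level split by the animals' number series and not by their genotype. That split was looked at only after the Irs2 values had been seen, so it is a description of these animals.

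**Figure D1:**
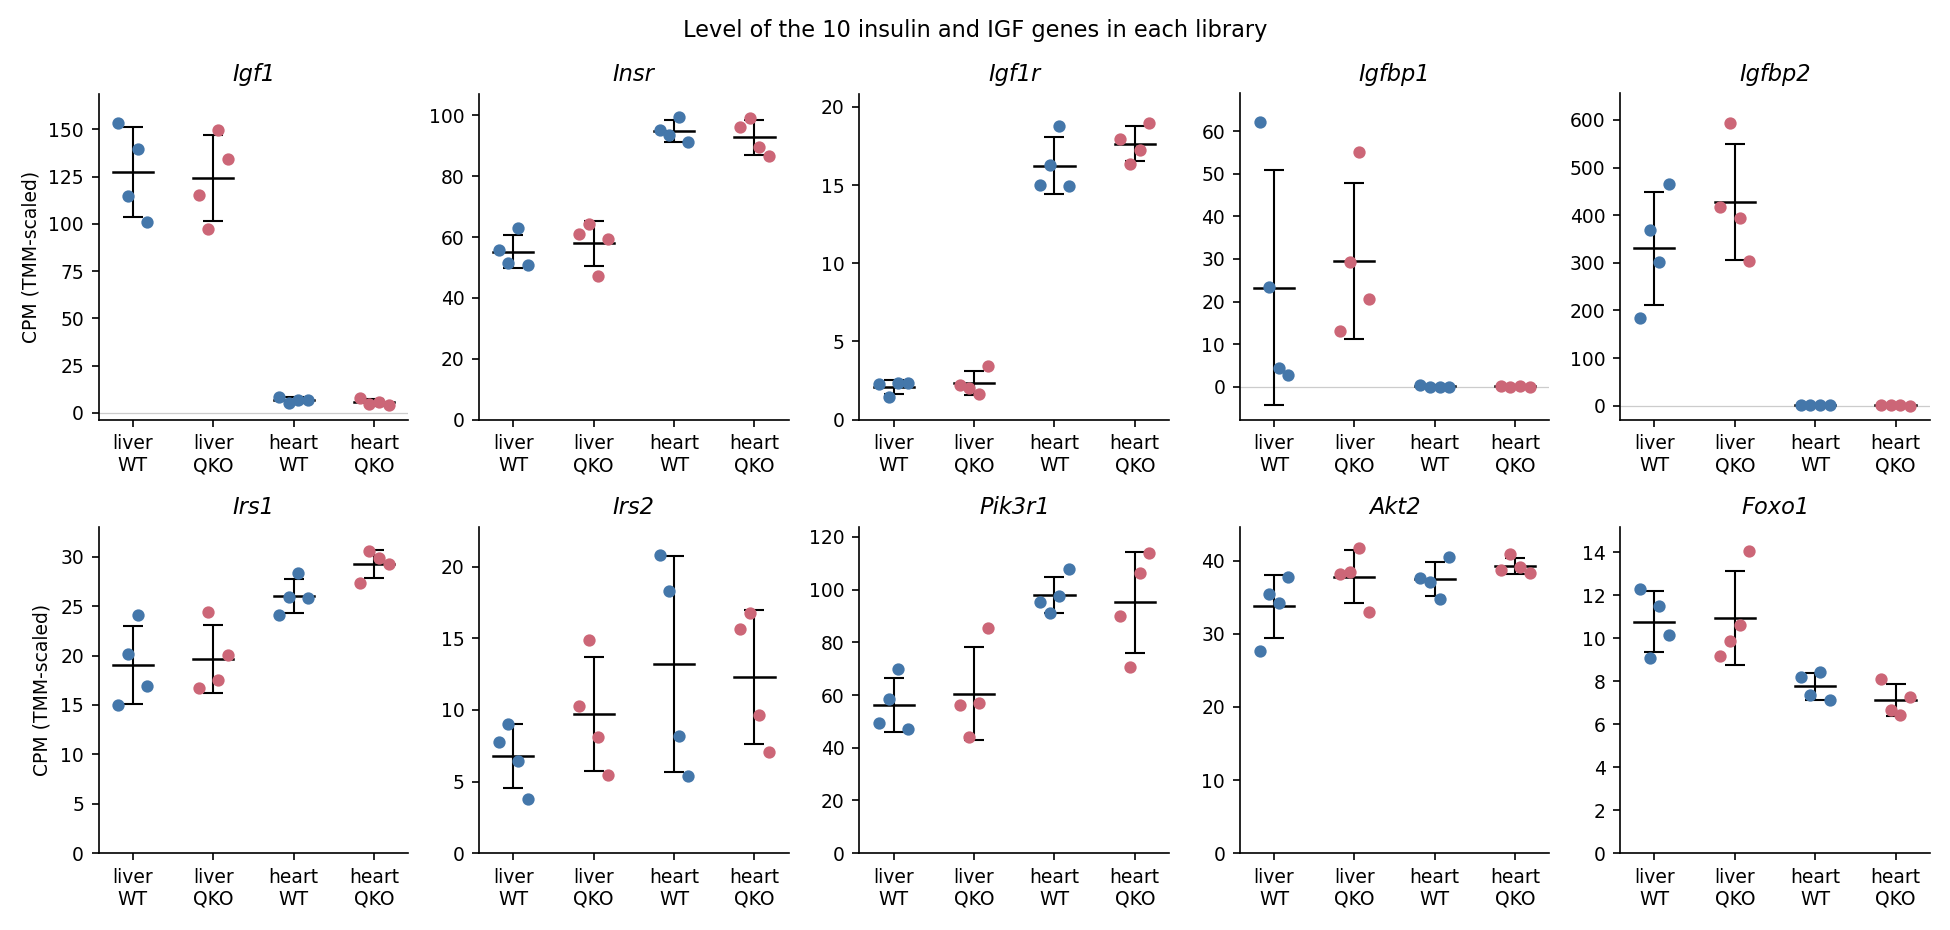
Level of each of the 10 genes in each library, in TMM-scaled CPM on a linear axis, in a panel for each gene, with replicates 1 to 4 from left to right in each group. Blue points are WT, red points are QKO, and the bars give the mean and SD over 4 animals. Igf1, Igfbp1 and Igfbp2 stand high in liver, Igf1r and Insr stand high in heart, and the WT and QKO points overlap in every panel.

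The promoters of 9 of the 10 genes, all but Insr, were matched in RefSeq's table for GRCm38.p6. The 250 bases before the start site are shown for Igfbp1 and Irs2, the members that varied most between animals in liver, and for Irs1, which varied less. Each holds the heptamer CAAAACA, the core of the insulin response sequence to which forkhead factors bind, or its reverse complement TGTTTTG, set in capitals.
Igfbp1: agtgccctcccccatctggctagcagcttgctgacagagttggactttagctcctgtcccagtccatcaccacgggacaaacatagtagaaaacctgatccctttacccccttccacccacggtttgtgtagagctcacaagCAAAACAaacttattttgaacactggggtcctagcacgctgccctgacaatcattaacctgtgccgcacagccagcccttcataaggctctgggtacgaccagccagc
Irs2: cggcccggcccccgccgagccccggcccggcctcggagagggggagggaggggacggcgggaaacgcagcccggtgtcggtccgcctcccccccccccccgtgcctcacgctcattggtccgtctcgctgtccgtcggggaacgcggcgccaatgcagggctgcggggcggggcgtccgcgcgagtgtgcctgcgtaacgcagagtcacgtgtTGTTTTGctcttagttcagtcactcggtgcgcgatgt
Irs1: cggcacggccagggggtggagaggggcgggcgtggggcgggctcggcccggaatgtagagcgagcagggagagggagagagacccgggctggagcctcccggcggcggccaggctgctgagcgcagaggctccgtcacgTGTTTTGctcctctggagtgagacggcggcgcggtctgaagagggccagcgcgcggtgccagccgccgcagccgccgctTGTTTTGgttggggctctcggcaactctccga
The Igfbp1 window lies at chr11:7197537-7197786 on the plus strand, the Irs2 window at chr8:11008930-11009179 on the minus strand and the Irs1 window at chr1:82291440-82291689 on the minus strand. The heptamer starts 108 bases before the start site in Igfbp1 and 37 before it in Irs2, and in Irs1 it occurs at 111 and again at 32. Searched on both strands, CAAAACA was in 5.56% of 32851 such windows. Among the 9 members it was in those of Igfbp1, Irs2 and Irs1 only, so the windows shown are all those of the members that hold it. None of the 9 members held the forkhead heptamer GTAAACA, which was in 3.17% of the windows. The STAT5 element TTCNNNGAA was in 7.02% of the windows and, among the members, in a window of Akt2. No match overlapped another. A match is a description of the letters only, and its bearing on the levels was not tested. The SD of log2 CPM within groups in liver was 1.52 for Igfbp1, 0.538 for Irs2 and 0.266 for Irs1.

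Igf1 (chr10:87858265-87937042), the ligand, was a liver transcript. WT livers 1 to 4 held 153, 115, 139.8 and 101 CPM, and QKO livers 1 to 4 held 115, 97.0, 149.7 and 134 CPM. WT hearts 1 to 4 held 8.63, 5.43, 6.53 and 6.53 CPM, and QKO hearts 1 to 4 held 7.95, 4.49, 5.82 and 4.10 CPM. Every liver was thus far above every heart, and the WT and QKO values lay among each other in both tissues. The log2 difference of heart from liver was -4.21 (SE 0.20, edgeR adjusted p = 1.351e-08) in WT and -4.45 (SE 0.23, edgeR adjusted p = 1.561e-09) in QKO. In heart, QKO differed from WT by -0.31 on the log2 scale, with a 95% interval from -0.73 to 0.10.

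Of the receptors, Igf1r (chr7:67952827-68233668), which binds IGF-I, showed the larger gap between tissues. Its levels in liver were 2.25, 1.43, 2.35 and 2.31 CPM in the WT and 2.22, 2.02, 1.64 and 3.45 CPM in the QKO. Those in heart were 15, 16.2, 18.8 and 14.9 CPM in the WT and 18.0, 16.3, 17.2 and 19.0 CPM in the QKO. No liver came near the lowest heart, and the log2 difference of heart from liver was 2.97 (SE 0.17, edgeR adjusted p = 5.203e-08) in WT and 2.94 (SE 0.20, edgeR adjusted p = 2.175e-08) in QKO.

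Insr (chr8:3122061-3279617), the insulin receptor, was well expressed in both tissues. The 4 WT livers gave 55.8, 51.5, 62.9 and 50.9 CPM and the 4 QKO livers 61.0, 64.3, 47.1 and 59.4 CPM. The 4 WT hearts gave 95.2, 93.6, 99.5 and 91.2 CPM and the 4 QKO hearts 96.1, 99.0, 89.8 and 86.5 CPM. Hearts were above all livers and varied little, and the log2 difference of heart from liver was 0.79 (SE 0.12, edgeR adjusted p = 0.0001443) in WT and 0.71 (SE 0.12, edgeR adjusted p = 0.0001636) in QKO. Levels of different genes can be compared only per length, here as CPM per kb of merged exons. On that scale Insr exceeded Igf1r 26.8-fold to 44.0-fold in WT livers, and only 6.47-fold to 7.75-fold in WT hearts. The ranges of this ratio were 20.99 to 38.8 in QKO livers and 5.57 to 7.40 in QKO hearts, so the balance of the receptors differed between the tissues in both genotypes without overlap.

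Igfbp2 (chr1:72824503-72852474), a secreted binding protein of IGF-I and IGF-II, was the highest of the 10 genes in liver per length. WT livers 1 to 4 held 184, 369.8, 302 and 466 CPM, and QKO livers 1 to 4 held 418, 595, 395 and 304 CPM. WT hearts 1 to 4 held 1.10, 1.70, 1.13 and 0.521 CPM, and QKO hearts 1 to 4 held 1.67, 1.58, 0.558 and 0.440 CPM. Livers spread over a wide band in both genotypes, and hearts were at a trace. The log2 difference of heart from liver was -8.26 (SE 0.46, edgeR adjusted p = 3.777e-08) in WT and -8.72 (SE 0.46, edgeR adjusted p = 1.964e-09) in QKO.

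Igfbp1 (chr11:7197782-7202546), the binding protein that insulin represses in liver, varied more between livers than any other member. Its levels in liver were 62.2, 23.5, 4.44 and 2.84 CPM in the WT and 13.2, 29.3, 55.2 and 20.6 CPM in the QKO. Both the highest and the lowest liver were WT, and all 4 QKO livers lay between them. The low values were in WT livers 3 and 4, the pair that held pancreatic transcripts. QKO differed from WT by 0.35 on the log2 scale, with a 95% interval from -1.35 to 2.05, and by -0.52 (edgeR adjusted p = 0.871) without WT livers 3 and 4. Over its 16 alternatives the adjusted p was never under 0.871. Per length, Igfbp2 exceeded Igfbp1 by 2.44-fold in WT liver 1 and by 135.7-fold in WT liver 4, while QKO livers ranged from 5.91 to 26.2. In heart, the WT libraries held 18, 0, 0 and 0 counts of Igfbp1 and the QKO libraries 3, 1, 11 and 6, too few for a test of genotype. The log2 difference of heart from liver was -7.77 (SE 1.36, edgeR adjusted p = 0.0003341) in WT and -7.96 (SE 0.59, edgeR adjusted p = 6.604e-08) in QKO. The WT value rests on heart 1. The other 3 WT hearts had no count. Against a floor of 3 counts pooled over those hearts, Igfbp1 was at least 481-fold below the mean of the livers of the same animals, 10.3 CPM. This bounds the mean and not each animal.

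Hepatocyte transcripts were present in every heart library, and their level was set beside that of the members. The 8 hepatocyte markers together stood in hearts at 0.142% to 0.898% of their mean over the livers, with a median of 0.352%. Igfbp2 stood in hearts at 0.116% to 0.448% of its mean over the livers, which exceeded the marker share in 1 of 8 hearts, at 1.35 times that share. Igf1, at 3.27% to 6.87% of its liver mean, was 7.55 to 36.6 times the marker share, and so was not at the level of these transcripts in any heart. Irs2 was at 253 times the marker share or more in every heart. In bulk tissue, fewer cells of a type and less RNA per cell cannot be told apart.

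**Figure D2:**
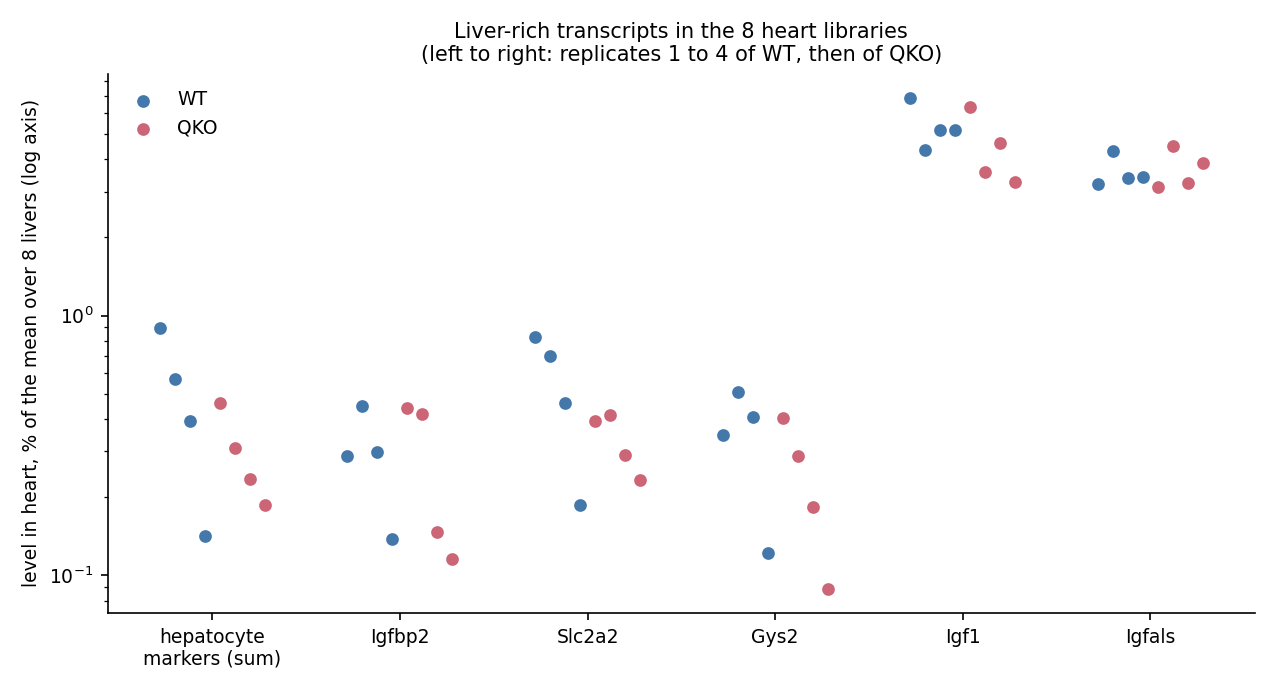
Level in the 8 hearts as a percent of the mean over the 8 livers (log axis) for the summed hepatocyte markers, for Igfbp2 and Igf1, and for Slc2a2, Gys2 and Igfals. WT points are blue and QKO points red, with replicates 1 to 4 from left to right in each genotype. The hepatocyte markers lie between 0.142% and 0.898%, Slc2a2 lies within that range, and Igfbp2 and Gys2 reach below it, to 0.116% and 0.089%, whereas Igf1, at 3.27% to 6.87%, and Igfals, at 3.12% to 4.49%, lie above it.

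Irs1 (chr1:82233101-82291416), the substrate that couples both receptors to PI3 kinase in muscle, was higher in heart. The 4 WT livers gave 14.97, 20.2, 24.1 and 16.9 CPM and the 4 QKO livers 16.7, 24.4, 17.5 and 20.1 CPM. Those in heart were 24.1, 25.9, 28.3 and 25.8 CPM in the WT and 27.3, 30.6, 29.9 and 29.3 CPM in the QKO. WT heart 2, 3 and 4 and every QKO heart lay above all livers of their genotype, and WT heart 1 lay just above the highest WT liver. The log2 difference of heart from liver was 0.46 (SE 0.14, edgeR adjusted p = 0.0136) in WT and 0.61 (SE 0.13, edgeR adjusted p = 0.0007626) in QKO. In heart, Irs1 had the smallest p of the members for genotype: QKO differed from WT by 0.17 on the log2 scale, with a 95% interval from 0.02 to 0.31, an edgeR adjusted p of 0.66 and an exact two-sided permutation p of 0.0571, where the least that 4 against 4 allows is 0.0286. The strand setting of the counting was not given in the sources used here. Irs1 shares 30.9% of its exon bases with Gm9747 on the opposite strand, Foxo1 7.78% with Gm20402 and Irs2 2.56% with 9530052E02Rik, so reads of these pairs may not be told apart.

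Irs2 (chr8:10984681-11008458), the substrate that fasting raises in liver, spread most between animals in heart. WT livers 1 to 4 held 7.79, 9.05, 6.47 and 3.80 CPM, and QKO livers 1 to 4 held 10.3, 14.9, 8.11 and 5.47 CPM. The 4 WT hearts gave 20.8, 18.3, 8.19 and 5.37 CPM and the 4 QKO hearts 15.7, 16.8, 9.67 and 7.05 CPM. Replicates 1 and 2 were high and replicates 3 and 4 low in heart in both genotypes, and the tissues overlapped. The log2 difference of heart from liver was 0.96 (SE 0.40, edgeR adjusted p = 0.0502) in WT and 0.36 (SE 0.31, edgeR adjusted p = 0.302) in QKO. With the animal as a block, which compares the tissues within each mouse, it was 0.84 (edgeR adjusted p = 0.00287) in WT and 0.38 (edgeR adjusted p = 0.0138) in QKO, past the threshold in both. Without WT replicate 4, and with no block, the WT difference was 1.04 (edgeR adjusted p = 0.00586), also past it. Over all alternatives the adjusted p ran from 0.00287 to 0.228 in WT, and from 0.0138 to 0.576 in QKO.

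Pik3r1 (chr13:101680563-101768217), the p85 alpha regulatory subunit, was higher in heart. Its levels in liver were 49.5, 58.4, 69.7 and 46.99 CPM in the WT and 56.2, 43.9, 56.8 and 85.3 CPM in the QKO. WT hearts 1 to 4 held 95.5, 91.3, 97.5 and 108 CPM, and QKO hearts 1 to 4 held 90.0, 70.7, 106 and 114 CPM. The tissues were apart in WT, whereas in QKO heart 2 fell below liver 4. The log2 difference of heart from liver was 0.82 (SE 0.15, edgeR adjusted p = 0.000533) in WT and 0.69 (SE 0.20, edgeR adjusted p = 0.007873) in QKO.

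Akt2 (chr7:27591552-27640826), the AKT kinase most tied to insulin-driven glucose uptake, was the most even of the 10 genes, with the smallest SD of log2 CPM within groups in both tissues (0.168 in liver and 0.0691 in heart). The 4 WT livers gave 27.7, 35.5, 34.2 and 37.7 CPM and the 4 QKO livers 38.2, 38.4, 41.8 and 32.9 CPM. Those in heart were 37.6, 37.1, 34.7 and 40.5 CPM in the WT and 38.7, 40.9, 39.2 and 38.3 CPM in the QKO. The tissues overlapped within each genotype, and the log2 difference of heart from liver was 0.16 (95% interval -0.10 to 0.42) in WT and 0.09 (95% interval -0.14 to 0.31) in QKO.

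Foxo1 (chr3:52268336-52353221), the factor that AKT inactivates, was the one intracellular member that was lower in heart. WT livers 1 to 4 held 12.3, 9.10, 11.5 and 10.2 CPM, and QKO livers 1 to 4 held 9.15, 9.87, 10.6 and 14.1 CPM. The 4 WT hearts gave 8.18, 7.34, 8.40 and 7.11 CPM and the 4 QKO hearts 8.09, 6.67, 6.43 and 7.25 CPM. No heart reached the lowest liver of its genotype, and the log2 difference of heart from liver was -0.46 (SE 0.12, edgeR adjusted p = 0.006198) in WT and -0.59 (SE 0.15, edgeR adjusted p = 0.002837) in QKO.

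In WT, 8 of the 10 genes thus passed the threshold between heart and liver, 4 higher in heart and 4 lower, where 72.5% of the 18204 genes tested passed it (35.6% higher and 36.9% lower). In QKO it was again 8 of 10, 4 higher and 4 lower, against 74.3% of 18039 genes (37.2% higher and 37.1% lower). These shares are near those of all genes, so the count itself is no mark of the members. The median size of their log2 difference, 0.89 in WT, was likewise near the 1.04 of all genes tested.

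Among the 93 other tested genes of the pathway list, 44 were higher in heart and 27 lower in WT, and 45 were higher and 31 lower in QKO. The share called was 76.3% in WT and 81.7% in QKO, beside 72.5% and 74.3% of all genes tested. At such rates the counts within a role, over a few genes each, are a description only. All 3 receptors tested were higher in heart, including Igf2r, the clearance receptor for IGF-II, at 34.4 ± 4.97 CPM in liver and 135.3 ± 10.5 CPM in heart (SD, n = 4, WT). Of the 8 binding proteins, 5 were lower in heart and 2, Igfbp5 and Igfbp6, were higher. Igfals, which holds IGF-I in its long-lived circulating complex, was at 67.7 ± 10.1 CPM in WT liver and 2.48 ± 0.346 CPM in WT heart (SD, n = 4). Igf2 and Igf1 went opposite ways, with Igf2 at 0.179 ± 0.120 CPM in liver and 3.60 ± 0.681 CPM in heart (SD, n = 4, WT), and a log2 difference of heart from liver of 4.40 (SE 0.39). The insulin genes Ins1 and Ins2 had 0 to 2 counts in any library, and the few counts were in WT livers 3 and 4.

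Within the cell, the largest difference of each role was seldom a member. Grb10, an inhibitor of both receptors, was higher in heart by 3.79 (SE 0.10) on the log2 scale in WT, at 3.12 ± 0.194 CPM in liver and 42.7 ± 1.51 CPM in heart (SD, n = 4, WT). Pik3r3, another regulatory subunit, was higher by 2.42 (SE 0.14), and Trib2, an AKT inhibitor, by 3.03 (SE 0.15). Of the 7 genes of the AKT arm, 4 were higher in heart and none lower in WT, where 35.6% of all genes tested were higher and 36.9% lower. Foxo3, Foxo4 and Foxo6 were higher in heart while Foxo1 was lower, and Foxo3 differed by 1.34 (SE 0.14). Cish, a target of growth hormone signalling, was higher in heart by 2.87 (SE 0.44), and Stc2, an inhibitor of IGF release, by 4.54 (SE 0.31). On the liver side stood Deptor, an inhibitor of mTOR, at -2.30 (SE 0.14), and the small GTPase gene Hras at -0.94 (SE 0.19). Gys2, the liver glycogen synthase, was at -8.27 (SE 0.38) and G6pc, the last step of glucose release, at -7.99 (SE 0.49). All of these passed the threshold in WT.

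**Figure D3:**
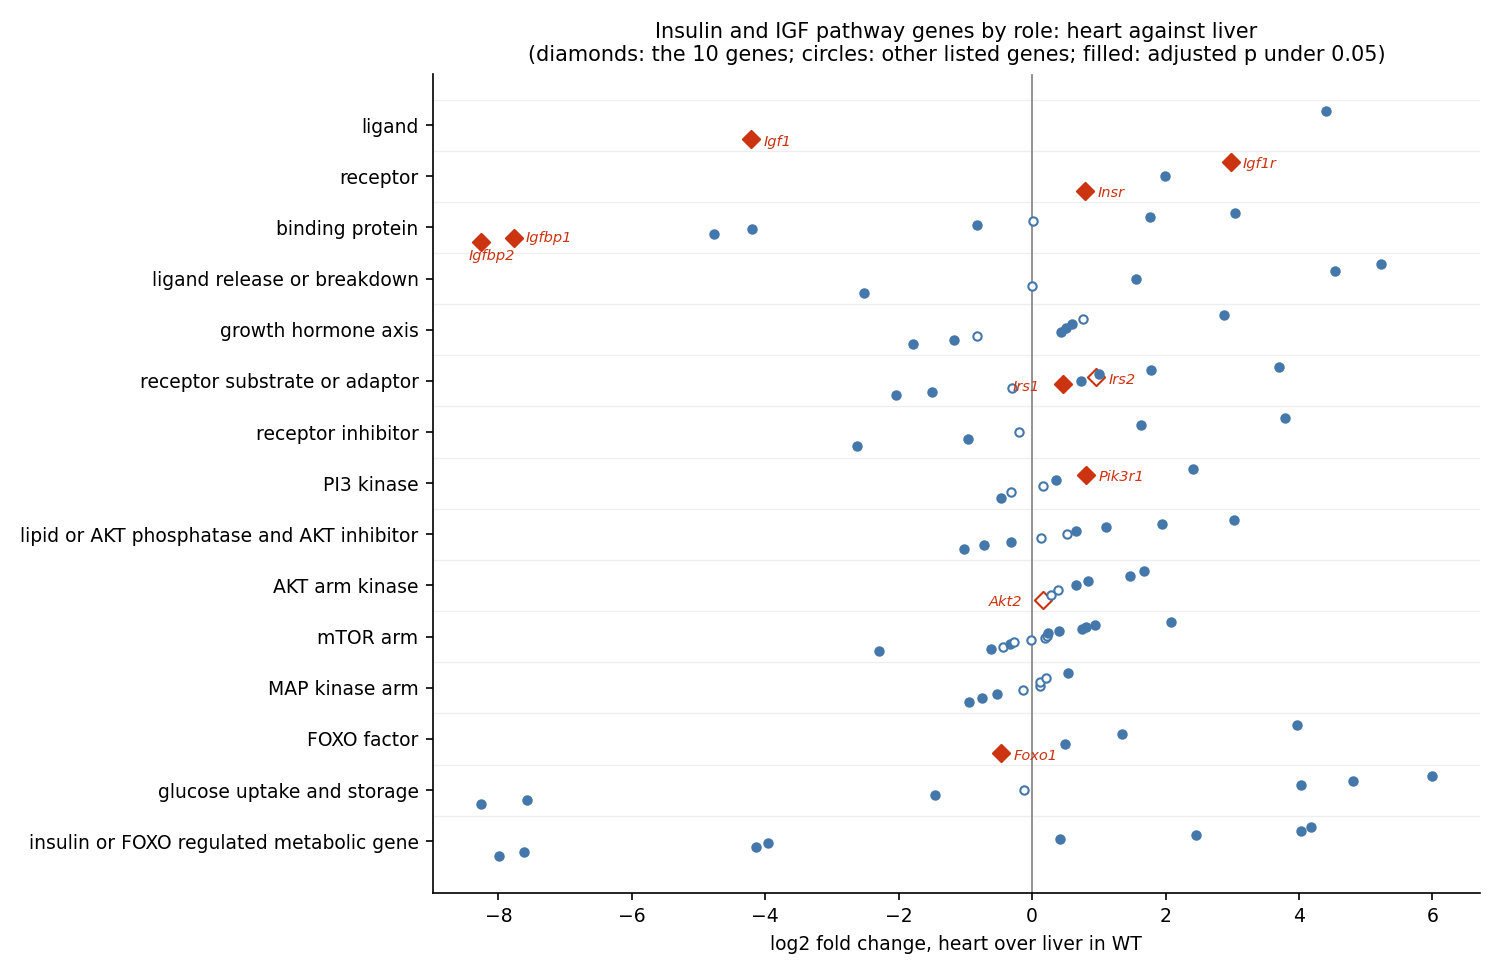
Log2 difference of heart from liver in WT for each tested gene of the pathway list, one row per role. Red diamonds are the 10 genes and blue circles the other listed genes, filled where the edgeR adjusted p was under 0.05. The ligand Igf1 and the binding proteins Igfbp1 and Igfbp2 lie far to the liver side, both receptors lie to the heart side, and the substrates, kinases and Foxo1 lie within 1 of 0.

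Per kb of exon, the order of the 10 genes also differed between the tissues. In WT liver Igfbp2 led at 178.9 ± 64.3 CPM per kb (SD, n = 4), followed by Igfbp1 at 15.2 ± 18.1, Igf1 at 12.8 ± 2.40, Pik3r1 at 5.57 ± 1.02, Akt2 at 4.74 ± 0.604 and Insr at 4.02 ± 0.403. Irs1 at 2.08 ± 0.435, Foxo1 at 1.24 ± 0.164, Irs2 at 1.07 ± 0.355 and Igf1r at 0.124 ± 0.0262 came last. The SD of Igfbp1 exceeds its mean, and its WT livers ran from 1.86 to 40.8 CPM per kb. Its place is thus not settled against Igf1, Pik3r1, Akt2, Insr and Irs1. Each WT liver value of Igfbp1 did lie above all those of Foxo1, Irs2 and Igf1r. Of the other neighbours, Pik3r1 and Akt2, Akt2 and Insr, and Foxo1 and Irs2 did not differ beyond their SD. In WT heart Pik3r1 led at 9.72 ± 0.692 CPM per kb (SD, n = 4), followed by Insr at 6.90 ± 0.253, Akt2 at 5.25 ± 0.330, Irs1 at 2.85 ± 0.189 and Irs2 at 2.09 ± 1.19. Igf1r at 0.967 ± 0.107, Foxo1 at 0.895 ± 0.0728, Igf1 at 0.685 ± 0.135, Igfbp2 at 0.602 ± 0.261 and Igfbp1 at 0.0704 ± 0.141 followed. There Irs1 and Irs2, Irs2 and Igf1r, Igf1r and Foxo1, and Igf1 and Igfbp2 did not differ beyond their SD. The order in QKO was the same in heart except that Igfbp2 and Igf1 changed places, and the same in liver except that Irs2 and Foxo1 did. The ligand to receptor ratio, Igf1 over Igf1r per kb, was 73.9 to 136.1 in WT livers and 0.567 to 0.976 in WT hearts.

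The study's main question was what loss of the Msr genes changes in each tissue. In liver, 0 of the 10 genes passed the threshold in edgeR, against 0.0846% of 17738 genes called. At an unadjusted p under 0.05 there were 0 of the 10, against 583 of the 17738. In heart, 0 of the 9 tested genes passed it in edgeR, against 0.165% of 16974 genes called. There 1 of the 9, Irs1, had an unadjusted p under 0.05, against 1220 of the 16974, so that count is no mark of the members. DESeq2 also called 0 of them in either tissue. The WT and QKO ranges overlapped for all 10 genes in both tissues, where 2.12% of genes in liver and 4.67% in heart had ranges apart. The test of whether the genotype difference itself differed between the tissues called 0 of the 10 in edgeR, against 0.00511% of 19587 genes. At an unadjusted p under 0.05 it had 0 of the 10, against 784 of the 19587.

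The intervals set how large a change could have gone unseen. In heart they were -0.17 to 0.11 for Insr, -0.07 to 0.20 for Akt2, 0.02 to 0.31 for Irs1 and -0.06 to 0.31 for Igf1r, on the log2 scale and at 95%. For Foxo1 the interval in heart ran from -0.34 to 0.09 and for Pik3r1 from -0.30 to 0.21. In liver the intervals were -0.25 to 0.36 for Insr, -0.15 to 0.46 for Akt2, -0.44 to 0.35 for Igf1, -0.35 to 0.42 for Irs1, -0.35 to 0.37 for Foxo1, -0.35 to 0.55 for Pik3r1 and -0.41 to 0.72 for Igf1r. Doublings were not excluded for Irs2 in liver, at 0.51 with an interval from -0.16 to 1.18, or for Igfbp1, and in heart the interval of Irs2 ran from -0.90 to 0.70. For Igfbp2 the interval ran from -0.24 to 0.97 in liver and from -1.04 to 0.91 in heart.

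**Figure D4:**
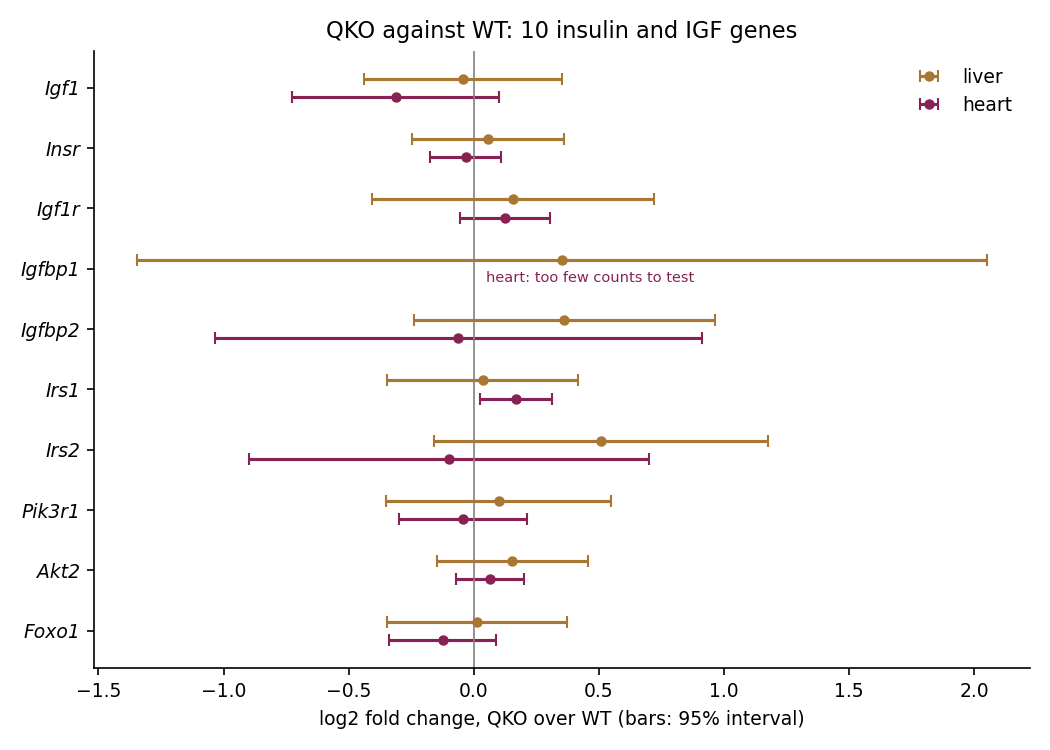
Log2 fold change of QKO over WT for each of the 10 genes in liver (brown) and heart (purple), with 95% intervals from the edgeR fit. Every interval spans 0 except that of Irs1 in heart, which runs from 0.02 to 0.31 before any adjustment for the number of genes.

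In the wider list, 1 of 91 other genes passed the threshold in liver and 1 of 92 in heart, in both cases Ide, which encodes an insulin-degrading protease. Its mean was 65.3 ± 10.5 CPM in WT and 28.4 ± 2.58 CPM in QKO livers (SD, n = 4), with a log2 change of -1.21 (SE 0.15, edgeR adjusted p = 0.006147). In hearts it was 64.8 ± 4.68 and 31.6 ± 1.90 CPM (SD, n = 4), with a log2 change of -1.04 (SE 0.07, edgeR adjusted p = 2.607e-06). The next smallest p in liver belonged to Igfbp3, the main carrier of IGF-I in blood, at 13.4 ± 3.54 CPM in WT and 22.6 ± 4.88 CPM in QKO (SD, n = 4), with a log2 change of 0.75 (SE 0.20, edgeR adjusted p = 0.901). In heart it was Igfbp4, another binding protein, with a log2 change of -0.30 (SE 0.09, edgeR adjusted p = 0.503).

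The animals' numbers fall into 2 series, numbers starting with 47 for replicates 1 and 2 and with 48 for replicates 3 and 4 of both genotypes, and the labels do not say what the series mark. The split was looked at after the values of Irs2 had been seen, so its tests describe these animals only. In heart, Irs2 ranged from 15.7 to 20.8 CPM in the 47 series and from 5.37 to 9.67 CPM in the 48 series, with no overlap. With the series as a term beside genotype, the 48 series was lower by a log2 of -1.27 (SE 0.15, edgeR adjusted p = 0.001077), the sixth smallest p of the genes tested. Of the 9 members tested, Irs2 was the 1 called, and 1.10% of the 16974 genes were called. Within WT alone the difference was -1.58 and within QKO alone -0.98. Within the series, the ratio of QKO to WT for Irs2 in heart was 0.828 in the 47 series and 1.23 in the 48 series, and in liver 1.49 and 1.32.

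In liver, Irs2 ranged from 7.79 to 14.9 CPM in the 47 series and from 3.80 to 8.11 CPM in the 48 series, with a slight overlap. The log2 difference was -0.78 (SE 0.20, edgeR adjusted p = 0.146), and edgeR called 0 of 17738 genes for the series in liver, with 2627 at an unadjusted p under 0.05, where DESeq2 called 533, Irs2 among them (DESeq2 adjusted p = 0.0164), and edgeR with no filter on low counts called 1141, Irs2 again among them (edgeR adjusted p = 0.0002281). The ribosomal RNA share was 31.4% to 54.4% in the hearts of the 47 series, and 56.9%, 7.37%, 36.0% and 0.245% in those of the 48 series (WT 3 and 4, then QKO 3 and 4). Hepatocyte markers were also lower in the 48 series, at 47.9 to 132.9 CPM against 105 to 304 CPM in the 47 series. The part of either in the Irs2 difference was not tested.

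**Figure D5:**
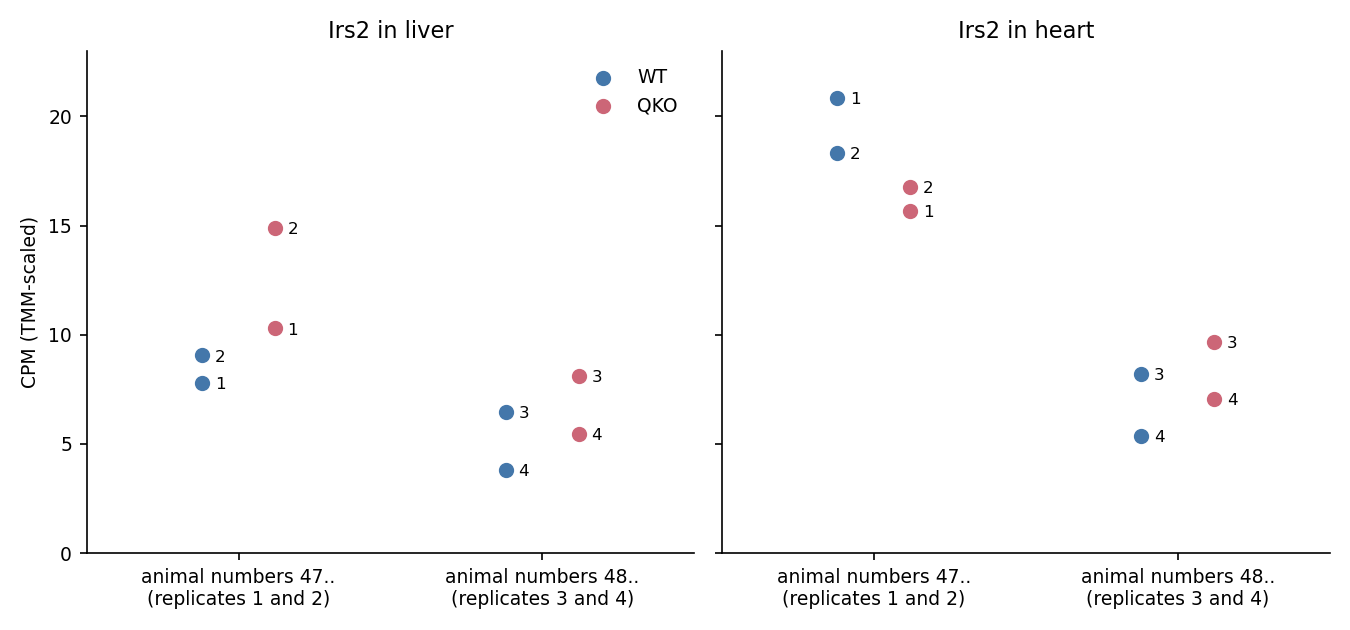
Irs2 in each liver (left) and heart (right), in TMM-scaled CPM, with animals grouped by number series and coloured by genotype (WT blue, QKO red), and the replicate number beside each point. In heart the 4 animals of the 47 series lie between 15.7 and 20.8 CPM and the 4 of the 48 series between 5.37 and 9.67 CPM, whatever the genotype.

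The ratio of Irs1 to Irs2 followed the same split. Per kb it was 0.801 and 0.979 in WT hearts 1 and 2 and 2.39 and 3.32 in WT hearts 3 and 4. In QKO hearts it was 1.21 and 1.26 in replicates 1 and 2 and 2.13 and 2.88 in replicates 3 and 4. Irs1 itself did not differ detectably by series in heart (log2 0.07, 95% interval -0.07 to 0.21). Of the other members, Igfbp2 in heart was lower in the 48 series by a log2 of -1.29 (edgeR adjusted p = 0.0513), alongside the lower hepatocyte markers, and Pik3r1 was higher by 0.30 (edgeR adjusted p = 0.1297).

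Among the other pathway genes, Pck1, which starts gluconeogenesis, was lower in the hearts of the 48 series (log2 -1.07, SE 0.20, edgeR adjusted p = 0.02321), and in hearts it stood at 0.855 to 1.36 times the hepatocyte marker share. The Pck1 call was lost by edgeR without WT replicate 1 (adjusted p = 0.0637), WT replicate 2 (0.0609), QKO replicate 1 (0.0607) or QKO replicate 4 (0.0503). The Irs2 call held in each of these, with an edgeR adjusted p of at most 0.0100. The split had been chosen on the Irs2 values, so this is no independent check of that call.

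Since liver and heart came from the same mice, the deviation of each animal from its group mean could be set side by side. Pearson's r of these deviations between the tissues, over 8 animals and given as a description, was 0.889 for Irs2 and 0.873 for Irs1. It was 0.749 for Igfbp1, 0.665 for Insr and 0.613 for Pik3r1, and between 0.201 and 0.342 for the other 5 members. The Igfbp1 value rests on heart libraries with 0 to 18 counts of that gene. Between members within a tissue, the closest relations in liver were Igf1 with Igfbp2 (r = -0.866) and Igfbp2 with Akt2 (r = 0.833), and in heart Igf1r with Akt2 (r = -0.887) and Igfbp2 with Pik3r1 (r = -0.848), each over the 8 libraries of a tissue, which share library size scaling.

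The genes whose levels moved most like the most variable members were found by Pearson's r of log2 CPM with group means removed, over 8 libraries and 13786 protein-coding genes in liver or 13451 in heart. With so few libraries such values run high, and each of the 10 members had a gene at r = 0.966 or above in each tissue. For Igfbp1 in liver they were Slc25a15 (r = 0.987), Cyb5a (0.980) and Rnf146 (0.969). For Irs2 in liver they were BC025920 (r = 0.978), Car8 (0.971) and Clint1 (0.967). For Irs2 in heart they were Cyp2c40 (r = 0.989), Nr4a1 (0.982) and Apom (0.981). For Igfbp2 in heart they were Pum3 (r = 0.991), Tab3 (0.989) and Fermt2 (0.987).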

How the data were processed

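RNA depleted of ribosomal RNA was sequenced in pairs of 75 bp reads, per the labels' protocols. The authors deposited raw counts, whole numbers per gene identifier, and per the submitters' processing notes HISAT2 and featureCounts were used with mm10, along with cutadapt, FastQC, bcl2fastq, CASAVA and limma. Their versions, the annotation release and the strand setting are not given in the sources used here. Symbols and positions came from GENCODE M21 on GRCm38, the assembly of mm10: 48349 of 48709 identifiers matched it. Promoter letters are RefSeq's, for GRCm38.p6.

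Counts were tested with edgeR 4.0.16 in R 4.3.3 (filterByExpr by group, TMM, glmQLFit and glmQLFTest, Benjamini-Hochberg adjustment over all genes, threshold 0.05), separately for QKO against WT in liver and in heart, for heart against liver in each genotype, and for the interaction over all 16 libraries. SE is the size of the log2 change over the square root of F. For single members, log2 of CPM plus 0.5 was compared by an exact permutation test over 70 relabellings. The scripts were tested on simulated data. Alternatives were DESeq2 1.42.0, other library sizes, no filter, blocks and left-out animals. The labels state no pairing of WT with QKO animals by replicate number, though these numbers follow the animals' number series. Liver and heart of the same number and genotype come from the same animal by the labels' animal number.

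All 10 members are named. Of the pathway list, genes past the threshold for genotype, the 2 with the smallest p per tissue and, per role, the gene with the largest tissue difference in WT are named, as are the 3 genes most like each of the 2 most variable members per tissue. Igf2r, Igfals and Pck1 and members of counted groups were added after their values were seen. Some results for the pathway list are not reported here. The members and lists were chosen with earlier results of these data known.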

Additional observations from a re-analysis of the deposited data

Results flagged for a closer look

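In each tissue and genotype, the highest and lowest of the 4 animals were compared with the rest for the 10 genes, 40 groups in all, and 2 groups held an animal that stood apart by Dixon's ratio. Chance gives about 1 such group in 20. Igf1r in WT livers was lowest in replicate 2, at 1.43 CPM, against 2.25 CPM in the nearest of the others, a gap of 0.891 of the group's range. Igfbp1 in WT hearts was highest in replicate 1, at 0.429 CPM, with 0 in the other 3, and that library also held the most hepatocyte marker RNA of all hearts, at 0.898% of the liver mean. With 0 in the other 3, Dixon's ratio is 1.0 for any count in replicate 1, so the chance rate above does not apply to this group.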

How the results depend on the processing

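For genotype, none of the members passed the threshold under any alternative that was run, with the lowest adjusted p at 0.777 in liver, 0.426 in heart and 0.902 for the interaction. Among the 16974 to 19587 genes tested, the count past the threshold for QKO against WT in liver was 15, and 50 by DESeq2 and 44 in a fit over all 16 libraries (12 to 19 with an animal left out). In heart it was 28, and 64 by DESeq2, 102 with no filter, 50 with the replicate number as a block, and 16 in a fit over all libraries (18 to 25 with an animal left out). The replicate block left the liver count at 16. For the interaction it was 1, and 13 by DESeq2, 2 with no filter and 0 with the animal as a block (1 to 2 with an animal left out). DESeq2 also moved the share of higher calls, from 66.7% to 42% in liver. The labels state no pairing of WT with QKO by replicate number. Correlations of deviations between WT and QKO of the same number ran from -0.115 to 0.148 in liver and 0.0394 to 0.399 in heart. The best match was the same number for 2 of 4 in liver and 3 of 4 in heart.

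Small genotype differences changed sign, 31 of 434 values, none of them past the threshold. With the replicate block Irs2 in heart was 0.0111, and 0.00943 with the animal series as a term. Igfbp1 in liver was -0.52 without WT livers 3 and 4. With an animal left out, the range in liver was -0.153 to 0.0704 for Igf1, -0.0706 to 0.178 for Irs1, -0.13 to 0.10 for Foxo1, -0.15 to 1.53 for Igfbp1, -0.10 to 0.29 for Igf1r and -0.11 to 0.24 for Pik3r1. In heart it was -0.40 to 0.25 for Irs2, -0.37 to 0.26 for Igfbp2, -0.138 to 0.0744 for Pik3r1 and -0.0656 to 0.00318 for Insr. For the interaction it was -0.67 to 4.37 for Igfbp1, whose WT hearts without replicate 1 hold no count, and -0.17 to 0.16 for Igf1r. Between the tissues no member changed sign, and Irs2 alone changed its side of the threshold. For the animal series in heart, 187 genes were called, and 680 with no filter and 323 by DESeq2. An animal left out gave 30 (without QKO replicate 4) to 343 (without WT replicate 3), the hearts of replicate 4 left out 26, WT animals alone 13 and QKO animals alone 341. In liver 0 were called, and 1141 with no filter, 533 by DESeq2, 15 in WT and 97 in QKO animals alone, and 0 to 104 (without WT replicate 3) with an animal left out. The cause of these shifts was not tested. Depth limits Igfbp1 and Igfbp2 in heart most.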
